A study of Sus scrofa with 4 samples.

Results

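mir-1271 is a conserved mammalian microRNA family, described here in the hippocampus of newborn piglets after iron dextran. Its members were the 8 rows of the table of conserved miRNA sequences that carry the family name mir-1271, and the 1 annotated pig miRNA with that number, ssc-miR-1271. These are 9 of the 3117 rows in both tables. The family was chosen by its measured reads, which were low in the dorsal hippocampus of iron-treated piglets, so its levels are a description and no test was made of them.

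The piglets were 8 purebred Rongchang newborns of 1 litter, 4 females and 4 males, with the genotype labelled "wide type" in every group. The control group of 4 received no injection. The oxidative stress group of 4 was given intramuscular iron dextran, a form of iron bound to a sugar polymer, at 200 mg on postnatal days 3 and 4. Ventral and dorsal hippocampus were taken apart, the tissue of each group was mixed, and 1 small RNA library was sequenced per mixture: iron ventral, control ventral, control dorsal and iron dorsal. The labels used here do not give the age at dissection or the number of piglets in each mixture. The spread between piglets was not measured, so every interval below is a 95% interval that covers counting error only and compares libraries, not treatments. In mixed tissue, fewer cells of a type and less RNA per cell cannot be told apart.

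A miRNA is a short RNA cut from a hairpin, and it guides silencing proteins to messenger RNAs, mainly through its seed, bases 2 to 8 from the 5′ end. Either side of the hairpin, the 5p or the 3p arm, can yield the mature form. In mammals mir-1271 is best known from cultured tumour cells, where it has been reported to repress targets such as glypican-3. Its 5p arm carries the same seed as miR-96, a miRNA of sensory epithelia that is made together with miR-182 and miR-183. In the RefSeq gene table of the pig assembly Sscrofa11.1, MIR1271 lies inside the span of ARL10, a gene for a small GTPase-like protein. The submitters' notes name another build, Sscrofa10.2, so no coordinates are given, and the gene table does not say whether the hairpin is intronic.

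The 6 sequences of the 5p arm are shown because they differ by single bases, while 1 of them held nearly all the reads. Capitals mark the seed, and each name starts with the species code of the sequence: cfa for dog, hsa for human, efu for big brown bat, bta for cow, eca for horse and chi for goat. Of the 8 sequences, 0 listed pig among their species.
cfa-miR-1271: cUUGGCACcuaguaagcacu
hsa-miR-1271-5p: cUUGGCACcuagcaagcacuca
efu-miR-1271: cUUGGCACcugguaagcacuca
bta-miR-1271: cUUGGCACcuaguaaguacuca
eca-miR-1271a: cUUGGCACcucguaagcacuca
chi-miR-1271-5p: cUUGGCACcuaguaaguacu

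Counted from 1 at the 5′ end and written as the dog base, the position and the other base, the human sequence differed by U13C, the bat sequence by A11G, the horse sequence by A11C, and the cow and goat sequences by C17U. The dog and goat sequences are 20 bases long, and the other 4 end in CA after that, at 22 bases. All 6 share the seed UUGGCAC, so the differences lie outside it. The 2 sequences of the 3p arm have another seed, GUGCCUG, which no row outside mir-1271 carried, and the longer one extends the shorter by CA.
chi-miR-1271-3p: aGUGCCUGcuaugugccagg
hsa-miR-1271-3p: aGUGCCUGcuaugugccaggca

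Summed over its 8 sequences, mir-1271 held 2130 reads in iron ventral and 331 in iron dorsal, and 1789 in control ventral; in control dorsal it held 1261 reads of the 5p arm and 10 of the 3p arm. As CPM, counts relative to TMM-scaled library sizes, the family stood at 178 (170 to 185) in iron ventral, 125 (120 to 131) in control ventral, 104 (98.5 to 110) in control dorsal and 31.7 (28.3 to 35.3) in iron dorsal. In this order from high to low, no neighbours had overlapping counting intervals. With a mean of 110 CPM the family stood at place 126 of the 188 families that reached 10 CPM in at least 1 library.

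The dog sequence, cfa-miR-1271, carried 2107, 1768, 1247 and 325 of these reads in the same order of libraries. That was 98.9% (98.4% to 99.3%) of the family in iron ventral, 98.8% (98.2% to 99.3%) in control ventral, 98.1% (97.2% to 98.8%) in control dorsal and 98.2% (96.1% to 99.3%) in iron dorsal, by exact binomial intervals. The shares overlapped between all 4 libraries, so the family level is in effect the level of this 1 sequence. Its reads were whole numbers in each library, whereas reads that match several rows appear in the table as fractions.

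The other 5 sequences of the 5p arm summed to 11 reads in iron ventral, 9 in control ventral, 14 in control dorsal and 1 in iron dorsal. In that order hsa-miR-1271-5p had 5, 3, 6 and 1 reads, efu-miR-1271 had 2, 3, 3 and 0, and bta-miR-1271 had 3, 2, 3 and 0. eca-miR-1271a had 1, 1, 1 and 0 reads, and chi-miR-1271-5p had 1 read, in control dorsal. A count of 0 in the iron dorsal library allows up to 3 reads, or 0.287 CPM, by the one-sided 95% limit. These reads belong to the values that chose the family, so they give no separate support.

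The 3p arm is the minor product of the hairpin in these libraries. It summed to 12 reads in iron ventral, 12 in control ventral, 10 in control dorsal and 5 in iron dorsal. The goat sequence had 7, 6, 4.5 and 2 of these estimated reads and the human one 5, 6, 5.5 and 3. The share of the 3p arm in the family's reads was 0.563% (0.291% to 0.982%), 0.671% (0.347% to 1.17%), 0.787% (0.378% to 1.44%) and 1.51% (0.492% to 3.49%). These intervals overlap, so a change in arm use was not detectable at this depth. For the 3p arm alone, iron dorsal stood at 0.584 of control dorsal (0.157 to 1.87) and at 0.478 of iron ventral (0.132 to 1.46), and neither interval excludes 1. Counted by sequence, unscaled reads were lowest in iron dorsal for 7 of the 8 rows and tied at 0 for 1, chi-miR-1271-5p. In CPM the same rows were lowest there. These rows are the values that chose the family, and most hold few reads, so the count gives no separate support. As a background, 67 of the 188 measured families (35.6%) had their lowest CPM in iron dorsal.

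The annotated pig miRNA, ssc-miR-1271, held 17 reads in iron ventral, 14 in control ventral, 14 in control dorsal and 6 in iron dorsal, or 1.38, 0.966, 1.13 and 0.564 CPM of the annotated table. Its 51 reads over the 4 libraries equal 0.924% of the 5521 reads of the conserved family. The annotated table gives no sequence, so which arm or length this row counts was not determined. Its iron dorsal value was 0.497 of control dorsal (0.156 to 1.38) and 0.409 of iron ventral (0.132 to 1.09), with 1 inside both intervals. At this level the annotated row stays under the 10 CPM minimum in every library.

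**Figure D1:**
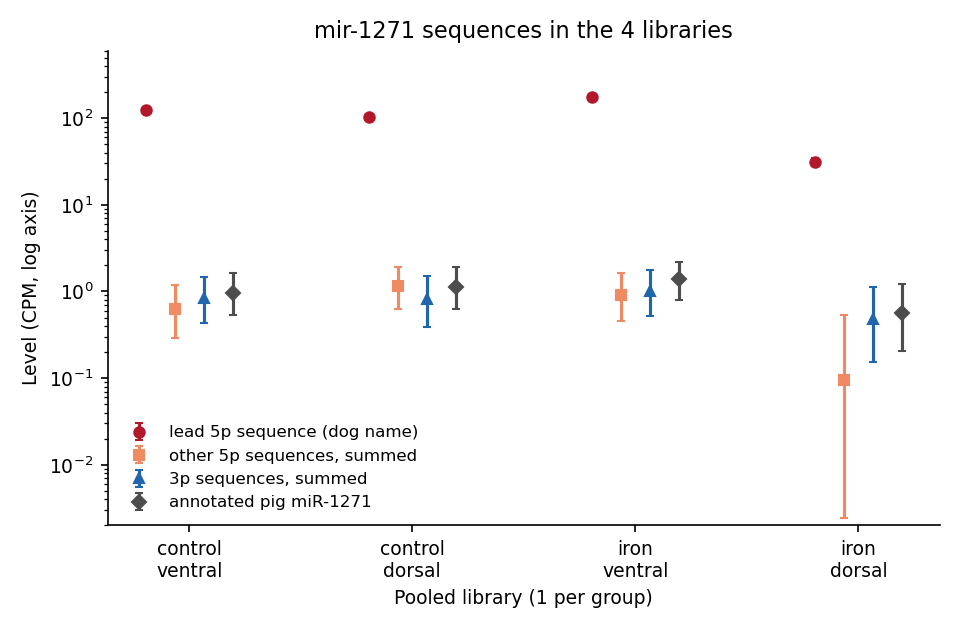
Level in CPM (log axis) of the lead 5p sequence, the other 5p sequences summed, the 3p sequences summed and the annotated pig miR-1271 in the 4 pooled libraries; bars are exact 95% Poisson intervals (counting error only). The lead sequence lies between 31.1 and 176 CPM and the other 3 items lie below 1.4 CPM, and each is lowest in iron dorsal.

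Iron against control in dorsal hippocampus is the comparison that drew attention to the family. The iron library was 3.29-fold lower (2.91 to 3.72). In this comparison 3 of 188 families were at least 2-fold lower with an interval excluding 1 (1.6%), namely mir-1271, mir-375 and mir-216, and mir-1271 had the lowest ratio of the 188. In the other direction 2 of 188 were at least 2-fold higher (1.06%). The next was mir-375, at a log2 ratio of -1.25 against -1.72 for mir-1271. Over all measured families the median log2 ratio was -0.04, and the central 95% lay between -0.87 and 0.74. Since this contrast chose the family, its place there is a description.

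Iron dorsal against iron ventral also enters that choice, and it gave the wider gap. Iron dorsal was 5.61-fold lower (4.99 to 6.31), the lowest ratio of the 188 families, with mir-216 next at a log2 ratio of -1.84 against -2.49. Here 8 of 188 families were at least 2-fold lower (4.26%) and 1 was at least 2-fold higher (0.532%). The median log2 ratio was -0.04, with a central 95% from -1.05 to 0.56. Both comparisons share the iron dorsal library, so they are not independent of each other.

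The 2 remaining comparisons do not use the iron dorsal library. In ventral hippocampus mir-1271 was higher in the iron than in the control library, at a ratio of 1.42 (1.33 to 1.51). It did not reach 2-fold, as 0 of 188 families did upward in this comparison (0.0%), and 7 families had a higher ratio. Downward, 5 of 188 families reached 2-fold (2.66%). In control piglets the dorsal library stood at 0.831 of the ventral one (0.773 to 0.894), where 38 families had a lower ratio than mir-1271. There 4 of 188 families were at least 2-fold lower (2.13%) and 1 at least 2-fold higher (0.532%). Thus the control regions differed in mir-1271 by 1.203-fold (1.12 to 1.29) and the iron regions by 5.61-fold; that contrast of treatments has no replicate and was not tested.

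**Figure D2:**
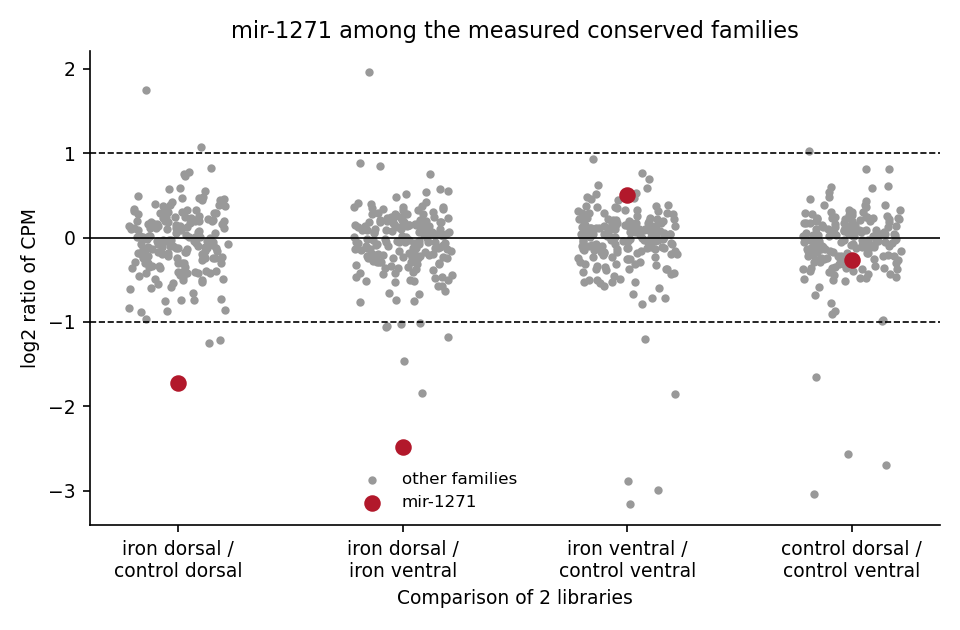
Log2 ratio of CPM for each of the 188 measured conserved families (grey points) in 4 comparisons of 2 libraries, with mir-1271 in red and dashed lines at 2-fold; points are spread sideways for legibility. mir-1271 is the lowest point in both comparisons of iron dorsal (-1.72 and -2.49) and lies within the cloud in the others (0.50 and -0.27).

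The nearest families in abundance varied less between the libraries than mir-1271 did. The 3 families next above mir-1271 in mean CPM were mir-328, mir-876 and mir-324, and the 3 next below were mir-190, mir-873 and mir-652. Their highest library exceeded their lowest by 1.24-fold (mir-652) to 1.57-fold (mir-876), against 5.61-fold for mir-1271. A little farther off in level, mir-182 (126 CPM on average), mir-33 (130 CPM) and mir-375 (89.1 CPM) had wider ranges, of 2.30-fold, 3.36-fold and 2.95-fold. For the 3 nearest families on each side, ratios of iron dorsal to control dorsal ran from 0.758 (mir-873) to 1.24 (mir-652), and those of iron dorsal to iron ventral from 0.827 (mir-190) to 1.06 (mir-652). By the ratio of the highest to the lowest library mir-1271 was at place 4 of 188, after mir-8, mir-96 and mir-183, which are all highest in control ventral.

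miR-96 and mir-1271 share a seed, so predicted seed matches in messenger RNAs are the same for both, and their reads were set side by side. The most abundant sequence of mir-96 and those of its cluster partners are shown because the seed identity holds for miR-96 alone: the seeds of miR-182 and miR-183 differ from it.
hsa-miR-96-5p: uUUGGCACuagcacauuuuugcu
eca-miR-182: uUUGGCAAugguagaacucacacug
hhi-miR-183: uAUGGCACugguagaauucacugu

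The mir-96 family stood at 12.4 CPM (10.5 to 14.6) in iron ventral, 91.5 (86.6 to 96.6) in control ventral, 15.5 (13.4 to 17.9) in control dorsal and 8.71 (7.01 to 10.7) in iron dorsal. It was thus high in control ventral and low in the other 3 libraries, a pattern unlike that of mir-1271, which was highest in iron ventral. Both were lowest in iron dorsal, as 35.6% of all measured families were, and mir-96 held only 91 reads there. Against control dorsal the iron dorsal library was 1.78-fold lower in mir-96 (1.38 to 2.31), and it stood at 0.858 in mir-183 (0.676 to 1.09) and 0.977 in mir-182 (0.90005 to 1.06).

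Over all rows of the conserved table with the seed UUGGCAC, the libraries held 190 CPM (181.96 to 198) in iron ventral, 217 (209 to 225) in control ventral, 119 (113 to 126) in control dorsal and 40.4 (36.6 to 44.4) in iron dorsal. Besides the 6 rows of mir-1271 and 4 of mir-96, only 5 rows carried the seed: 3 of mir-263 with 5 to 10.1 reads in each library, 1 of mir-182 and 1 without a family, with at most 2 reads each. mir-1271 made up 93.1% (91.9% to 94.1%) of these reads in iron ventral, 57.4% (55.7% to 59.2%) in control ventral, 86.5% (84.7% to 88.3%) in control dorsal and 77.3% (72.9% to 81.2%) in iron dorsal. It was the larger part of the seed group in each library, and the shares did not overlap.

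In ventral hippocampus the 2 families went opposite ways between the libraries: iron against control was 1.42 for mir-1271 and 7.37-fold lower (6.21 to 8.79) for mir-96. The control ventral library was high in mir-183 as well, at 90.6 CPM, and in the epithelial and sensory markers given below, so this is not particular to mir-96. The seed group of mir-1271 and mir-96 as a whole stood at 0.875 (0.828 to 0.924). In dorsal hippocampus both were lower, and the iron library had 2.96-fold less (2.65 to 3.30) of the seed group than the control library. Between the iron libraries, the seed group was 4.70-fold lower (4.23 to 5.22) in dorsal than in ventral, and mir-96 alone 1.43-fold lower (1.09 to 1.87). Most reads of the seed group are those of mir-1271, so its gaps are not separate from the values that chose the family.

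**Figure D3:**
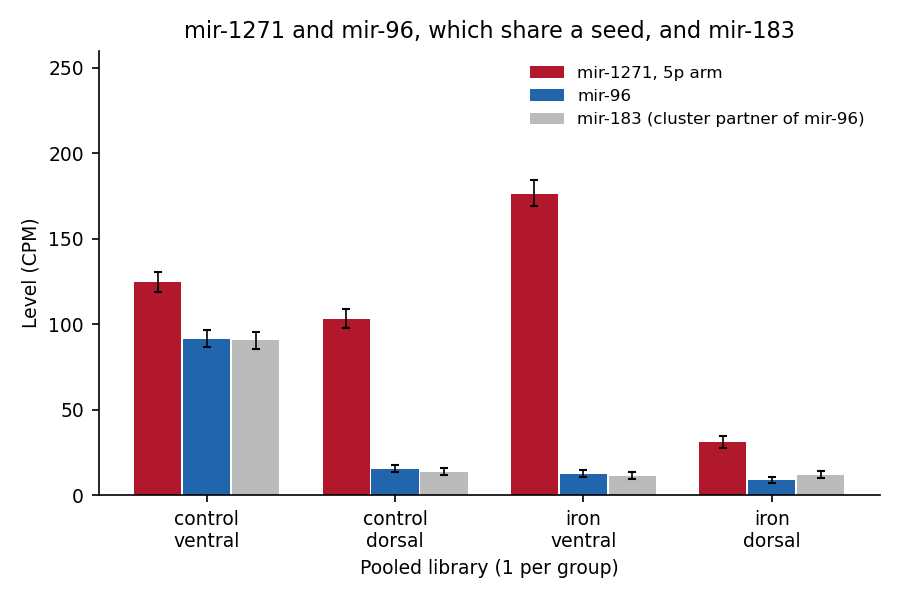
Level in CPM of the mir-1271 5p arm, of mir-96, which has the same seed, and of mir-183, a cluster partner of mir-96 with another seed, in the 4 pooled libraries; bars start at 0 and whiskers are exact 95% Poisson intervals. mir-96 and mir-183 are high in control ventral (91.5 and 90.6 CPM) and low elsewhere, while mir-1271 is highest in iron ventral and lowest in iron dorsal.

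The families whose profile over the 4 libraries was most like that of mir-1271 were found by the Euclidean distance between log2(CPM + 0.5) values, each centred on the family's mean. mir-216 was closest, at a distance of 0.598, followed by mir-33 (1.01), mir-217 (1.03), mir-449 (1.04) and mir-375 (1.04). A likeness over 4 libraries is a description of these libraries, and it depends on the measure. By correlation in place of distance, only mir-216 of these 5 stayed among the closest, and mir-124 came next. All 5 were lowest in iron dorsal, as mir-1271 was, but only mir-216 and mir-217 were also highest in iron ventral.

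mir-216 and mir-217, neighbours in the genome and known from the exocrine pancreas, were at low levels. mir-216 stood at 30.8 CPM in iron ventral, 20.5 in control ventral, 20.0 in control dorsal and 8.61 in iron dorsal. mir-217 stood at 17.3, 15.0, 8.03 and 6.31 CPM in this order of libraries, so its control dorsal value was also low. mir-375, abundant in endocrine cells, had 88.3, 125, 101 and 42.4 CPM and was highest in control ventral. mir-33, which sits in genes of sterol regulation, stood at 139, 206, 113 and 61.3 CPM. mir-449, known from ciliated cells, stood at 186, 210, 168 and 92.1 CPM, and its highest library exceeded its lowest by the smallest ratio of the 5. The families at least 2-fold lower in iron dorsal than in both other libraries it was compared with were mir-1271, mir-216 and mir-375. For mir-375 those were 2.37-fold (2.13 to 2.65) against control dorsal and 2.08-fold (1.86 to 2.33) against iron ventral, and for mir-216 2.32-fold (1.82 to 2.99) and 3.57-fold (2.83 to 4.55).

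**Figure D4:**
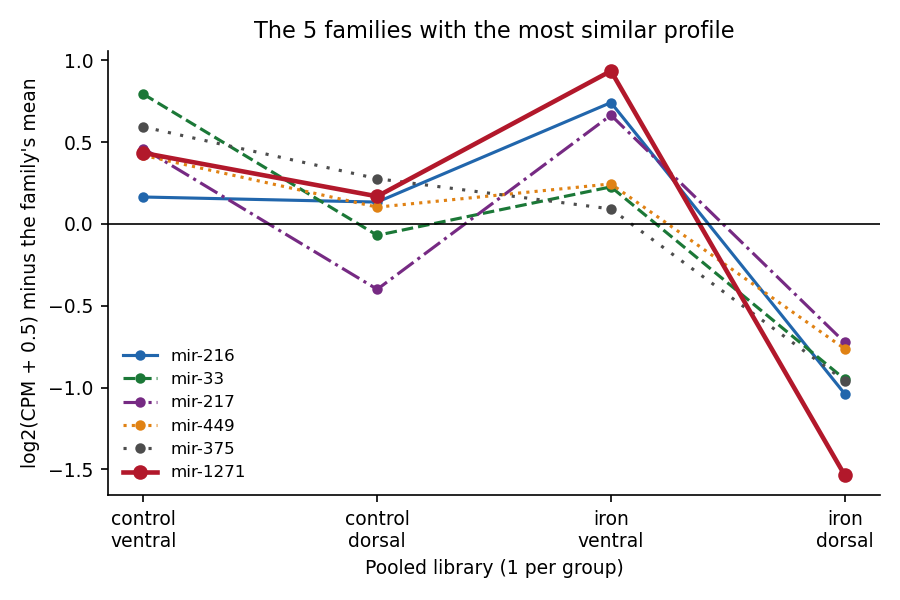
log2(CPM + 0.5) minus the family's mean over the 4 pooled libraries, for mir-1271 (thick red line) and the 5 families closest to it; lines join libraries only to guide the eye. All 6 families are lowest in iron dorsal, where mir-1271 lies 1.54 below its mean and mir-216 1.04 below.

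Markers of the tissue and of other cell types were summed by miRNA number in the conserved table. The neuron-enriched list (miR-124, miR-9, miR-128, miR-129 and miR-138) was present in each library, at 236870 to 266860 summed CPM. In it 0 of 5 members were 2-fold lower in iron dorsal than in control dorsal, where 1.6% of all measured families were. miR-9 held most of that sum, and its iron dorsal level was 1.03 of control dorsal. The other 4 were below control dorsal, at 0.821 for miR-124, 0.735 for miR-128, 0.665 for miR-129 and 0.895 for miR-138. Against iron ventral all 5 were below 1, from 0.701 for miR-129 to 0.964 for miR-9, and 0 were 2-fold lower. The oligodendrocyte list (miR-219 and miR-338) summed to 16908 CPM in iron ventral, 13208 in control ventral, 13637 in control dorsal and 10313 in iron dorsal. Its sum was thus highest in iron ventral and lowest in iron dorsal, as mir-1271 was, and it was the 1 list of 9 whose sum had both. By sum, 5 of the 9 lists were lowest in iron dorsal, beside 67 of the 188 measured families (35.6%). The share of all measured families with both features was not counted. The pattern was not limited to the oligodendrocyte list, since single members of other lists had both too. These were miR-124 (39907 CPM in iron ventral and 31638 in iron dorsal), miR-138, miR-486, miR-216 and miR-217. miR-219 stood at 0.745 of control dorsal and 0.598 of iron ventral, and miR-338 at 0.860 and 0.716, so both gaps were smaller than those of mir-1271. The part of the oligodendrocyte list in the mir-1271 values was not tested. The list of miR-216, miR-217 and miR-375 was also lowest in iron dorsal: it summed to 138 CPM in iron ventral, 162 in control ventral, 130 in control dorsal and 57.4 in iron dorsal, with 2 of 3 members at least 2-fold lower against control dorsal and 3 of 3 against iron ventral, where 1.6% and 4.26% of all measured families were. All 3 are among the 5 families picked above for a profile like that of mir-1271, so this count is not separate from that choice. None of its members was at 0 in any library, and its part in the mir-1271 values was not tested. The epithelial and sensory list held miR-200, miR-141, miR-429, miR-183, miR-96 and miR-182. In it 1 of 5 measured members was 2-fold lower against control dorsal and 0 against iron ventral. In the choroid plexus list only 1 of 2 members was measured, miR-204, and in the liver list 2 of 3. For the measured members of the oligodendrocyte, erythroid, choroid plexus, muscle, liver and immune lists the count was 0 in both comparisons. The ratios of these members to control dorsal ran from 0.745 in the oligodendrocyte list to 1.71 in the liver list. Their ratios to iron ventral ran from 0.598 in the oligodendrocyte list to 1.14 in the immune list.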

How the data were processed

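Per the submitters' processing notes, reads were trimmed with cutadapt 1.2.2 and the builds Sscrofa 10.2 and susScr 3 were used; the sources used here do not give the aligner, the read counter or the miRNA database version. The authors deposited estimated counts of reads per miRNA sequence, per the file headers: reads that match several rows appear as fractions. They were rounded to whole numbers here. The deposited RPM values of the conserved table are these reads relative to the table's total. A table of predicted miRNAs (8 columns of sample values) was not used.

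Reads were summed by family over 2630 named rows (0 duplicated sequences), giving 278 families and 11136624 to 13661160 reads per library, and scaled with TMM (edgeR 4.0.16). A family was measured at 10 CPM or more in at least 1 library, which 188 were. Levels carry exact Poisson intervals, ratios exact conditional binomial (Clopper-Pearson) intervals and shares exact binomial intervals (scipy 1.17.1), all at 95%. PCR reads without molecular identifiers are not independent molecules, so intervals and limits cover counting error only. The interval code was tested on simulated data. With 1 library per group no test was made. Alternatives were library totals, DESeq2 1.42.0 size factors, TMM over 321 annotated miRNAs (after merging rows of 1 precursor set whose reads lay within 0.1%), the authors' RPM, other filters, a 1.5-fold threshold, no rounding, the lead sequence alone and a correlation in place of the distance.

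The families named are the members, rows sharing a member's seed with miR-182 and miR-183, the 5 closest profiles, families 2-fold lower in iron dorsal than in control dorsal and iron ventral, and the 3 neighbours in level on each side. Families that came next by correlation are named as well. The members and lists were chosen with earlier results of these data known.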

Additional observations from a re-analysis of the deposited data

Results flagged for a closer look

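For mir-1271 and mir-216, iron was above control in ventral and below it in dorsal hippocampus, and neither counting interval included a ratio of 1. Other families in the text met this condition too, such as mir-124 (1.05 in ventral and 0.809 in dorsal) and mir-128 (1.28 and 0.735). This is common in these deep libraries: of all 188 measured families, 33 (17.6%) met the same condition and 29 (15.4%) met the reverse, with iron below control in ventral and above it in dorsal. For the mir-1271 family the ratio of iron to control was 1.42 in ventral and 0.304 in dorsal hippocampus. For its 5p arm the ratios were 1.42 and 0.302, and for the lead sequence cfa-miR-1271 1.42 and 0.304. mir-216 had 1.503 (1.29 to 1.76) in ventral and 0.430 (0.334 to 0.550) in dorsal. The dorsal log2 ratio fell short of the ventral one by more in mir-1271 than in the other 187 measured families, with a difference of -2.22 against -1.80 for mir-216. That difference contains the dorsal log2 ratio of -1.72, which chose the family, so its place is a description and no separate support. Each ratio rests on 1 pooled library per group, so whether the regions differ was not tested.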

How the results depend on the processing

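The levels and ratios of mir-1271 stayed inside their counting intervals under each scaling, without rounding, and with the lead sequence alone. Iron dorsal stood at 0.278 to 0.306 of control dorsal and 0.169 to 0.180 of iron ventral. Iron ventral stood at 1.35 to 1.42 of control ventral, and control dorsal at 0.815 to 0.839 of control ventral. With library totals the median log2 ratio of all families moved from -0.04 to -0.17 for iron against control dorsal. Counts of families at least 2-fold different moved more. For iron against control dorsal, 5 in place of 3 were lower with library totals, the authors' RPM or no filter, 2 at 100 CPM and 16 at 1.5-fold. In place of 2, 1 was higher with library totals or the authors' RPM, 4 without a filter, 0 at 100 CPM and 7 at 1.5-fold. For iron dorsal against iron ventral, in place of 8, 7 were lower with DESeq2 size factors or TMM over annotated miRNAs. Without a filter 10 were lower, with 5 at 100 CPM and 14 at 1.5-fold. In place of 1, 2 were higher without a filter, 0 at 100 CPM and 4 at 1.5-fold. For iron against control ventral, 2 were lower at 100 CPM and 10 at 1.5-fold in place of 5, and 3 were higher without a filter and 5 at 1.5-fold in place of 0. For control dorsal against control ventral, in place of 4, 6 were lower with library totals or the authors' RPM. Without a filter 10 were lower, with 1 at 100 CPM and 11 at 1.5-fold. In place of 1, 0 were higher with library totals or the authors' RPM, 3 without a filter and 5 at 1.5-fold. Of the 5 closest families, 1 was kept when likeness was a Pearson correlation over the 4 libraries, mir-216 (r = 0.99). Next by correlation came mir-124 (0.977), of the neuron-enriched list, then mir-342 (0.962), mir-1298 (0.960) and mir-760 (0.956). The causes of the moves in counts and in closest families were not tested, beyond the number of families each filter and threshold admits. No paired analysis was possible because each group is 1 pooled library, so the groups share fewer than 2 replicate numbers, and none could be left out in turn. An additive fit of treatment and region, whose 1 residual degree of freedom is the difference between the iron ratios of the regions, was not run. Depth limits the 3p arm, the other 5p sequences and the annotated row, each at 17 reads or fewer per library.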

Other observations

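The gap between the annotated and the conserved counts of mir-1271 was set beside that of other families, a comparison made after the values were seen. For 120 measured families whose rows all carry 1 miRNA number that the annotated pig table also holds, the annotated reads over the 4 libraries had a median of 110% of the conserved reads. mir-1271 was at 0.924%, and 1 family was lower, mir-1224, with 1 annotated read against 2086 conserved reads. In all, 9 of the 120 families were under 10%, among them mir-299 at 3.13%, mir-136 at 4.07% and mir-652 at 4.65%, chosen here after their values were seen. Which sequence each annotated row counts was not determined.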
